A study of Mus musculus with 2 samples.

Results

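The clustered histone genes are the rows of the count table whose symbols start with Hist1h, Hist2h, Hist3h or Hist4h, which gave 67 members of 32285 rows. They comprise 6 genes of linker histone H1, 18 of H2A, 18 of H2B, 12 of H3 and 13 of H4. In the mouse genome (GRCm38), 54 members (Hist1) lie on chromosome 13, 10 (Hist2) on chromosome 3, 2 (Hist3) on chromosome 11 and 1 (*Hist4h4*) on chromosome 6. A total of 65 members held at least 20 counts over the whole table and entered the comparisons, whereas *Hist1h2aa* and *Hist1h2ba*, which code for histone variants of the testis, held 0 counts.

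The cells were microglia of the brain, sorted as live CD45lo CD11b+ cells from cortex and hippocampus of APPswe/PS1δE9 (PSAPP) mice, a transgenic model of β-amyloid deposition that both groups share. Mice were gavaged once a day for 30 days from 9 to 10 months of age with vehicle (VEH) or with lemborexant (LEM, 30 mg/kg), an antagonist of both orexin receptors, and 5 mice of both sexes were pooled into 1 library per group. VEH held 18374 cells with a median of 5971 counts and LEM 24392 cells with a median of 6034, summing to 116229678 and 160752298 counts. Each treatment has a single library and no replicate. Every interval is thus a 95% interval for counting error only, no p-value is given, and the treatment cannot be told apart from other differences between the 2 pools of mice. At least 6 of 8 microglial markers were detected in 99.3% of VEH and 99.2% of LEM cells, and cells holding at least 3 markers of another type at 2 or more counts made up 0.278% and 0.66%.

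Core histones H2A, H2B, H3 and H4 form the octamer around which DNA is wrapped, and H1 binds the linker between nucleosomes. Most clustered histone genes are replication-dependent: they are transcribed in S phase, and their mRNAs end behind a conserved stem-loop that is bound by SLBP instead of in a poly(A) tail. Several of these genes can also give longer, polyadenylated transcripts in cells that do not divide. The 5′ libraries used here start from RNA that is primed on poly(A), which mRNAs that end at the stem-loop lack. Ratios are taken within a member, and shares of histone counts given for members or groups of members describe the counts captured, not the relative amounts of their mRNAs. Ratios compare captured counts too, and whether a member is captured alike in the cells compared was not tested. Differences in ratio between members, classes or bands carry the same limit.

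The stem-loop was searched as a perfect 6-base stem with GG at its 5′ end and a 4-base loop that starts with TT, behind the stop codon of each annotated transcript (GENCODE, GRCm38). Of 54 members whose annotated transcripts go on behind the stop codon, 44 (81.5%) held it, against 50 of 20966 other protein-coding genes (0.238%). The 6 forms found are shown as DNA letters 5′ to 3′ with the stem in capitals, because this element separates the members from nearly all other genes.
26 members (*Hist1h1c*, *Hist1h1d*, *Hist1h1e*, *Hist1h2ae*, *Hist1h3b* and others): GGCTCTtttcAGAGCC
7 members, all H4 (*Hist4h4*, *Hist1h4c*, *Hist1h4d*, *Hist1h4m*, *Hist1h4n* and others): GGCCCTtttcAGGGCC
6 members (*Hist1h3c*, *Hist1h3e*, *Hist1h2bk* and others): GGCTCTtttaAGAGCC
*Hist2h4* and *Hist1h4i*: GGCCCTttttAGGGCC
*Hist1h4b* and *Hist1h4j*: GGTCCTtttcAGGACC
*Hist2h2ac*: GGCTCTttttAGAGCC
The forms that start with GGCC or GGTC were found in H4 genes, and the first form in H1, H2A, H2B and H3 genes.

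Promoters from RefSeq (GRCm38.p6) were matched for 62 members. In the 250 bases before the start, CCAAT on either strand was present in 82.3% of members and 37.4% of 26963 other genes, TATAAA in 46.8% and 14.2%, and the octamer ATTTGCAT in 22.6% and 1.76%. CCAAT was in all 6 H1, all 18 H2A and all 16 H2B promoters but in 3 of 12 H4 promoters, and the octamer was in 7 of 18 H2A and 7 of 16 H2B promoters and in none of the 6 H1, 10 H3 and 12 H4 promoters. Promoters of 2 members with very large ratios in the comparison below (*Hist1h1b* and *Hist1h3g*), of the member with the smallest mean ratio over both libraries (*Hist4h4*) and of the member with the most counts (*Hist1h1e*) are shown 5′ to 3′ on the strand of the gene, with both of the first motifs in capitals, whichever strand holds them.
*Hist1h1b*, chr13:21780626-21780875, minus strand: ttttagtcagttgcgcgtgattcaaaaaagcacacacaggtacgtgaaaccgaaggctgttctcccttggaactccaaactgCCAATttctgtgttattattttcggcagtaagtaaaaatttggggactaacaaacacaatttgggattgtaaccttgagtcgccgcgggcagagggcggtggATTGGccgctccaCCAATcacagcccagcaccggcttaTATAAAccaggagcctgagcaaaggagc
*Hist1h3g*, chr13:23535168-23535417, plus strand: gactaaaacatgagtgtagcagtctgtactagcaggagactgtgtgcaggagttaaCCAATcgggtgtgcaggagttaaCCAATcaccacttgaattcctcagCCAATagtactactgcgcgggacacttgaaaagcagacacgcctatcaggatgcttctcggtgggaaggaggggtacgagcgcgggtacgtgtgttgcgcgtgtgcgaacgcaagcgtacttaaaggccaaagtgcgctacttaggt
*Hist1h1e*, chr13:23622559-23622808, minus strand: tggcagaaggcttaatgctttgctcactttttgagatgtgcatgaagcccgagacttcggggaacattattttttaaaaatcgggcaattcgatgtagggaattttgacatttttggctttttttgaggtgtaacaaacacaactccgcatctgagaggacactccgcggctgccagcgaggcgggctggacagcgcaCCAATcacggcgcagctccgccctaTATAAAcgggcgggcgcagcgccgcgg
*Hist4h4*, chr6:136804432-136804681, minus strand: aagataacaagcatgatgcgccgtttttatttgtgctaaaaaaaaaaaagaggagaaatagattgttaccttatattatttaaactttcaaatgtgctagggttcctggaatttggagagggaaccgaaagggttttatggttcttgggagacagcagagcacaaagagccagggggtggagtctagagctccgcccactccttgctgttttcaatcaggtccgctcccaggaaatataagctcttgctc
*Hist1h1b* and *Hist1h1e* both held CCAAT and TATAAA, with TATAAA starting 28 and 27 bases before the start, and their ratios between cells are given next. *Hist1h3g* held CCAAT at 3 places and no TATAAA, and neither motif nor the octamer was found in the window of *Hist4h4*.

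To part expression linked to replication from expression in non-cycling cells, cells were split by their summed raw counts of *Mki67* and *Top2a*, which mark cells from S phase to mitosis. VEH held 18160 cells with 0 counts, 61 with 1 count and 153 with 2 or more, and LEM held 24074, 103 and 215. The cells with 2 or more counts made up 0.833% (0.706 to 0.975) of VEH and 0.881% (0.768 to 1.01) of LEM cells, intervals that overlap. They were deeper, with medians of 9821 and 10317 counts against 5949.5 and 6009, so shares of cells are also given after thinning to 2000 counts. Cells with fewer than 2000 counts were left out of the thinned shares. These shares rest on 16857 VEH and 22870 LEM cells with 0 counts and on 153 VEH and 212 LEM cells with 2 or more. All 28 S-phase genes and all 24 G2/M genes of the lists used here, among them *Pcna* and *Cdk1*, were at least 2-fold higher in the cells with 2 or more counts in both libraries.

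Clustered histone genes were higher in cycling cells as a group but were also present in cells without *Mki67* and *Top2a*. Their summed level was 1716 counts per 1000000 (CPM) in VEH cells with 0 counts and 9363 CPM in those with 2 or more, and 1784 and 7459.7 CPM in LEM. On the log2 scale VEH cells differed by 2.45 (2.42 to 2.47) and LEM cells by 2.06 (2.04 to 2.09). Cells with 1 count, at 1716 and 2006 CPM, stood closer to the cells with 0. A total of 59 of the 65 members were at least 2-fold higher in both libraries, against 10.8% of the 17877 genes tested, and 0 were at least 2-fold lower in both, against 12.5% of genes. The cells with 2 or more counts nevertheless held 7.0% of all histone counts in VEH and 5.71% in LEM.

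**Figure D1:**
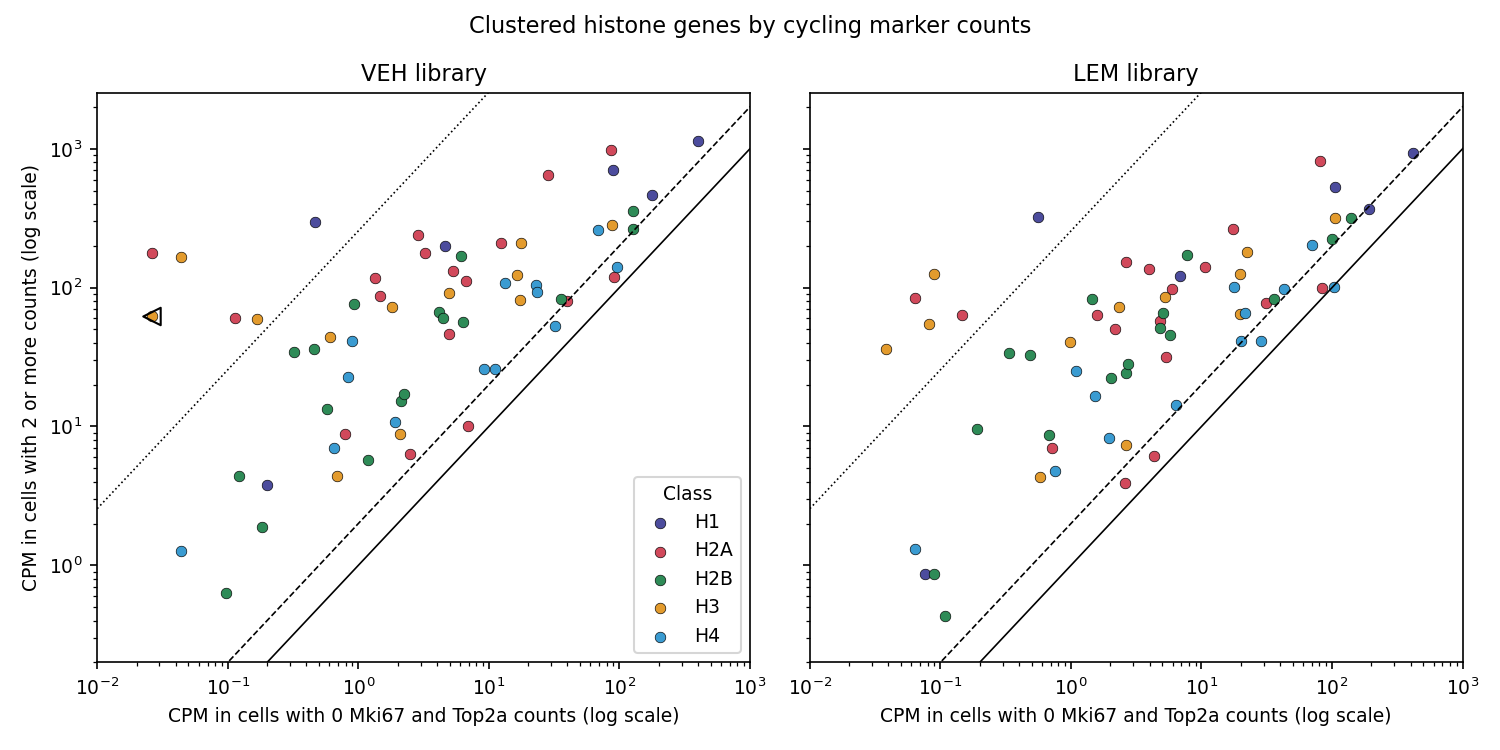
Level of each of 65 clustered histone genes in CPM (log scales) in cells with 0 (x) against cells with 2 or more (y) raw counts of *Mki67* and *Top2a*, for the VEH (left) and LEM (right) libraries, with 1 point per gene coloured by class and lines at ratios of 1 (solid), 2 (dashed) and 256 (dotted). The genes *Hist1h1b*, *Hist1h2af*, *Hist1h2ah*, *Hist1h3b*, *Hist1h3c* and *Hist1h3g* lie above the dotted line in both panels, and the open triangle marks *Hist1h3g*, at 0 counts in VEH cells with 0 counts and drawn at its 3-count floor.

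At least 1 count of any member was detected in 96.1% of VEH and 96.6% of LEM cells with 0 counts of the cycling markers, and in 99.3% and 99.5% of those with 2 or more. Thinned to 2000 counts these shares were 86.8% and 87.5%, and 97.4% and 94.3%. What separated the strata was how many members a cell held. The median cell with 0 counts held 5 members in both libraries, whereas the median cell with 2 or more held 27 in VEH and 21 in LEM. After thinning the medians were 2 and 2, against 11 and 8.

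Members differed widely among themselves, and 4 bands of the ratio describe them. The bands were set after the values were seen. The band of 256-fold or more in both libraries held 6 members (*Hist1h1b*, *Hist1h2af*, *Hist1h2ah*, *Hist1h3b*, *Hist1h3c* and *Hist1h3g*), against 0.397% of all genes. Of the rest, 27 were 8 to 256-fold, 26 were 2 to 8-fold and 6 were under 2-fold in at least 1 library. The step between the first and the second band was wide: the lowest log2 inside was 8.48 in VEH (*Hist1h3c*) and 8.78 in LEM (*Hist1h2ah*), and *Hist1h2bm*, the highest outside, stood at 6.72 in VEH and 6.66 in LEM. The lower edges were not gaps, with *Hist1h2ac* inside the 2-fold edge at 1.01 in VEH and 1.31 in LEM and *Hist1h1c* outside it at 1.37 in VEH and 0.95 in LEM. The first band held 0.0475% and 0.0547% of histone counts in cells with 0 counts and 8.74% and 9.17% in those with 2 or more. The second band rose from 11.5% and 10.8% to 41.1% and 37.3%. Both rises follow from the ratios that set the bands.

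**Figure D2:**
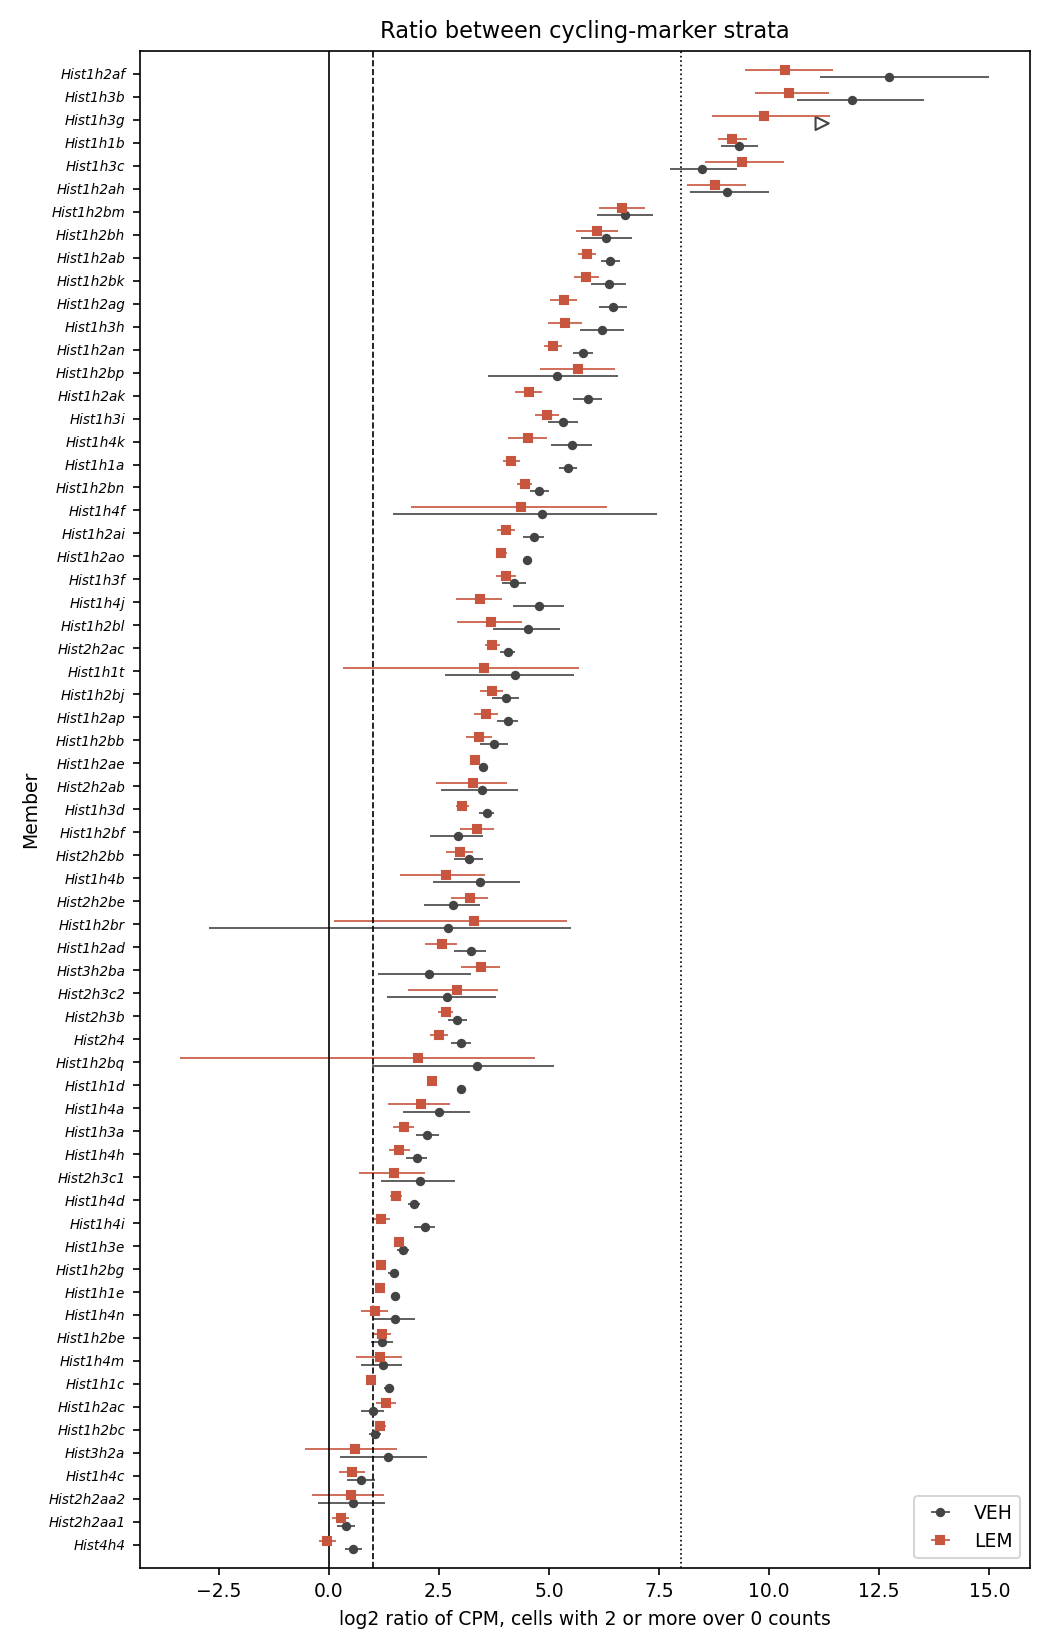
Log2 ratio of CPM between cells with 2 or more and cells with 0 raw counts of *Mki67* and *Top2a* for 65 members, as points with 95% counting intervals for VEH (circles) and LEM (squares), with lines at 0 (solid), 1 (dashed) and 8 (dotted). Members run from *Hist4h4*, at 0.56 in VEH and -0.03 in LEM, to *Hist1h2af*, at 12.71 in VEH and 10.37 in LEM, and the open triangle is the lower bound for *Hist1h3g* in VEH.

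By the rule that set the first band, its 6 genes were nearly confined to cells with 2 or more *Mki67* and *Top2a* counts. *Hist1h1b* (chr13:21779883-21780625, minus strand), which codes for the linker histone H1.5, held 53 counts in the 18160 VEH cells with 0 counts and 467 in the 153 cells with 2 or more, and 88 and 735 in LEM. That is 0.464 and 295 CPM in VEH and 0.558 and 320.1 CPM in LEM, with log2 ratios of 9.31 (95% interval 8.90 to 9.75) and 9.16 (95% interval 8.84 to 9.50). It was detected in 0.149% and 48.4% of cells in VEH and 0.245% and 46.5% in LEM, and 89.8% and 89% of its counts came from the cells with 2 or more. No other annotated transcript shares any of its 90-base stretches, which covers exact matches only.

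The other 5 genes of this band code for core histones. The H3 gene *Hist1h3b* (chr13:23752267-23752886, plus strand) held 5 and 14 counts in cells with 0 counts of VEH and LEM and 261 and 287 in cells with 2 or more, with log2 ratios of 11.88 (95% interval 10.64 to 13.51) and 10.46 (95% interval 9.69 to 11.35). The H2A gene *Hist1h2af* (chr13:23533906-23534304, plus strand) held 3 and 10 counts against 279 and 192, and reached 50.3% and 41.9% of cells with 2 or more. *Hist1h3g*, a neighbouring H3 gene, held 0 counts in VEH cells with 0 counts and 98 in those with 2 or more, which is at least 2358-fold higher when the 0 is set to a floor of 3 counts in the library, and 6 and 83 counts in LEM. The H3 gene *Hist1h3c* held 19 and 13 counts against 94 and 126. *Hist1h2ah*, an H2A gene named after its values were seen, held 13 and 23 against 95 and 147. For *Hist1h2ah*, 89.6% of 90-base stretches occur in another transcript, and for *Hist1h2af* 66.5%. For the H3 genes *Hist1h3b*, *Hist1h3g* and *Hist1h3c* the shares are 57.4%, 40.8% and 31.6%. Part of the reads of these 5 genes could thus not be given to 1 gene.

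At least 1 of these 6 genes was detected in 120 VEH cells of 153 with 2 or more counts (78.4%) and 155 LEM cells of 215 (72.1%), and at least 3 of them together in 74 and 96 cells. In cells with 0 counts the shares were 0.363% and 0.507%, and 0 cells held 3 or more of the 6. Thinned to 2000 counts, the shares were 56.2% and 52.8% against 0.154% and 0.197%. The band was set by the ratio between these same 2 kinds of cells, so a contrast in this direction follows from its definition. Among cells with 0 counts that carry markers of the choroid plexus epithelium, 1 of 34 VEH and 3 of 116 LEM cells held one of the 6 genes (2.94% and 2.59%, at median depths of 9812 and 8944 counts). These shares rest on few cells, which are deeper than the cells with 0 counts as a whole, at medians of 5949.5 and 6009 counts, and were not thinned. The source of the counts in cells with 0 counts of *Mki67* and *Top2a* was not tested.

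Within the cycling cells, most members were detected more often in cells that held *Hist1h1b* than in cells that did not. Of the VEH cells with 2 or more counts, 74 held *Hist1h1b* and 79 did not. The share was higher in the former for 58 of 64 other members and lower for 6, with medians of 45.3% and 24.7% over the members, and in LEM it was higher for 62 and lower for 2, with medians of 49.5% and 21.7%. *Hist3h2ba* was among the exceptions in VEH, at 4.05% and 6.33%. *Hist1h3b* was detected in 73% of the former and 38% of the latter, *Hist1h2af* in 67.6% and 34.2%, and *Hist1h1a* in 75.7% and 39.2%. In LEM, with 100 and 115 cells, the shares were 63% and 34.8%, 57% and 28.7%, and 66% and 29.6%. Of the 2 to 8-fold band, *Hist1h2bg* was detected in 94.6% and 73.4% in VEH and in 87% and 60% in LEM, and *Hist1h3e* in 81.1% and 57% in VEH and in 87% and 58.3% in LEM. *Hist1h2bc* was closer between both kinds of cells, at 70.3% and 67.1% in VEH and 68% and 54.8% in LEM. Cells with *Hist1h1b* were somewhat deeper, at medians of 10162 against 9434 counts in VEH and 11295 against 9375 in LEM, and held more G2/M list counts, at medians of 76 against 32 in VEH and 91 against 32 in LEM. The parts of depth and of list counts in these shares were not tested. The tally was not taken over all genes, so it does not set the members apart from other genes.

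At the other end, 6 members were under 2-fold in at least 1 library. The H4 gene *Hist4h4* (chr6:136801553-136804415, minus strand), which lies alone on its chromosome, was at 95.8 and 141 CPM in VEH and 104 and 101 CPM in LEM in cells with 0 and with 2 or more counts, with log2 ratios of 0.56 (95% interval 0.36 to 0.75) and -0.03 (95% interval -0.22 to 0.15). The H2A gene *Hist2h2aa1* on chromosome 3 was at 91 and 119.5 CPM in VEH and 83.3 and 100.16 CPM in LEM, with ratios of 0.39 (95% interval 0.18 to 0.60) and 0.27 (95% interval 0.07 to 0.45). *Hist2h2aa1* overlaps *Gm20634* on the same strand, and 88.5% of its 90-base stretches occur in other transcripts. Its near copy *Hist2h2aa2*, all of whose 90-base stretches occur in another transcript, had 0.56 in VEH and 0.50 in LEM, the H4 gene *Hist1h4c* 0.73 in VEH and 0.53 in LEM, and the H2A gene *Hist3h2a* 1.34 in VEH and 0.60 in LEM on 10 and 9 counts in cells with 2 or more. *Hist4h4* was detected in 30.3% and 58.2% of cells in VEH and 31.3% and 46% in LEM. Thinned to 2000 counts its shares were 14.8% and 20.9% in VEH and 15.5% and 19.3% in LEM, which are closer to each other.

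Linker histone genes held 39.3% of all histone counts and had members in each of the 4 bands. *Hist1h1e* (H1.4, chr13:23620629-23622558, minus strand) had the most counts of any member (115876) and was at 401 and 1132 CPM in VEH and 417 and 929 CPM in LEM, with ratios of 1.5 (95% interval 1.43 to 1.57) and 1.16 (95% interval 1.09 to 1.22). It was detected in 70.2% and 96.1% of cells in VEH and 72.7% and 91.6% in LEM. *Hist1h1c* (H1.2) was at 179 and 463 CPM in VEH and 190.3 and 368 CPM in LEM. *Hist1h1d* (H1.3) stood higher, at ratios of 3.0 (95% interval 2.91 to 3.08) and 2.34 (95% interval 2.25 to 2.42), and *Hist1h1a* (H1.1) at 5.44 (95% interval 5.23 to 5.64) and 4.14 (95% interval 3.95 to 4.34). *Hist1h1t*, the linker histone of the testis, held 43 counts in all. Leaving that gene aside, the order *Hist1h1c* and *Hist1h1e*, then *Hist1h1d*, then *Hist1h1a*, then *Hist1h1b* was the same in both libraries, with intervals that did not overlap between these 4 steps.

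H2A genes had the largest summed ratio of the 5 classes, 3.45 in VEH and 3.06 in LEM, and went from 17.1% of histone counts in VEH cells with 0 counts to 34.2% in those with 2 or more, and from 14.5% to 28.8% in LEM. Of 17 H2A genes tested, 14 were at least 2-fold higher in both libraries. *Hist1h2ae* was at 86.1 and 977 CPM in VEH and 81 and 813 CPM in LEM, with ratios of 3.5 (95% interval 3.43 to 3.58) and 3.33 (95% interval 3.26 to 3.40), and *Hist1h2ao* was at 28.3 and 643 CPM in VEH and 17.6 and 265 CPM in LEM. *Hist2h2ac* had ratios of 4.06 in VEH and 3.72 in LEM, whereas *Hist1h2ac*, with 1.01 in VEH and 1.31 in LEM, stood just past 2-fold.

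All 17 H2B genes tested were at least 2-fold higher in both libraries, with summed ratios of 1.98 and 1.95, but none reached the first band. *Hist1h2bg* was at 128 and 356 CPM in VEH and 141 and 319 CPM in LEM and *Hist1h2bc* at 127 and 264 CPM in VEH and 100.01 and 225 CPM in LEM. *Hist1h2be* had ratios of 1.22 in VEH and 1.20 in LEM and *Hist1h2bn* of 4.78 in VEH and 4.45 in LEM. The annotation of *Hist1h2be* (chr13:23583670-23621124, minus strand) overlaps *Hist1h1e* on the same strand, so reads there are uncertain for both genes.

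All 12 H3 genes were at least 2-fold higher in both libraries, with summed ratios of 3.02 and 2.64. *Hist1h3e*, with 27756 counts the most counted H3 gene, had ratios of 1.69 in VEH and 1.59 in LEM and *Hist1h3a* of 2.24 in VEH and 1.71 in LEM, while *Hist1h3d* had 3.59 in VEH and 3.04 in LEM and *Hist2h3b* 2.92 in VEH and 2.66 in LEM. H4 genes had the smallest summed ratios, 1.67 and 1.19, with 11 of 13 at least 2-fold higher in both libraries. *Hist1h4d* had 1.93 in VEH and 1.53 in LEM, *Hist1h4h* 1.99 in VEH and 1.6 in LEM, *Hist1h4i* 2.18 in VEH and 1.19 in LEM, *Hist1h4m* 1.22 in VEH and 1.17 in LEM, *Hist1h4n* 1.5 in VEH and 1.04 in LEM and *Hist2h4* 3.01 in VEH and 2.51 in LEM. The H4 class went from 16.3% and 17.8% of histone counts in cells with 0 counts to 9.54% and 9.7% in those with 2 or more.

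The ratio also differed along the genome. The Hist1 genes lie in 3 stretches of chromosome 13, at 21715763 to 21837530 (18 members), 22035164 to 22043676 (5 members) and 23531050 to 23934851 (31 members). The first stretch held 5.31% of histone counts, had 18 of 18 members at least 2-fold higher in both libraries and had summed ratios of 4.62 and 4.15. The second had 3.85 and 2.87, and the third, which held 78% of histone counts, 2.20 and 1.85. The Hist2 genes on chromosome 3 had 2.12 and 1.92. Members with many counts weigh most in these sums, and the third stretch also holds *Hist1h2af*, *Hist1h3b*, *Hist1h3c* and *Hist1h3g* of the first band. Median log2 ratios over members, averaged over both libraries, were 4.48, 5.90 and 3.05 in the 3 stretches. Members of 1 stretch share neighbours and sequence and are not independent of each other.

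Members with annotated sequence far behind the stop codon tended to have the smaller ratios. The 28 members with at least 150 bases behind the stop codon had a median log2 ratio, averaged over both libraries, of 2.48 (0.26 to 6.19) and held 82.8% of histone counts. The 26 members with some but fewer bases there had a median of 3.87 (0.33 to 11.54), and the 11 whose annotation ends at the stop codon 5.02 (3.07 to 9.24). The split at 150 bases was set after the values were seen. In *Hist4h4* and *Hist1h1e* the stem-loop shown above is followed by 2445 and 1153 annotated bases, and in *Hist1h3b* by 51. All 6 members of the first band fell on the short side, but so did *Hist2h2aa1*, with 35 bases behind its stem-loop. The gene models of *Hist1h1b*, *Hist1h2af* and *Hist1h2ah* hold 0, 1 and 2 bases behind the stop codon, so their 3′ ends may not be annotated. No stem-loop was found in 4 of the 6. Over 65 members, Spearman's rho between transcript length and the ratio was -0.45, a description across genes that share clusters and are not independent. The annotation may itself be longer for genes with more known transcripts, and this was not tested. Transcript overlap moved with the same split: the median share of 90-base stretches found elsewhere was 20.6%, 55.5% and 65.9% in these 3 groups of members. Its rho with the ratio was 0.10, and its part in the pattern was not tested.

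**Figure D3:**
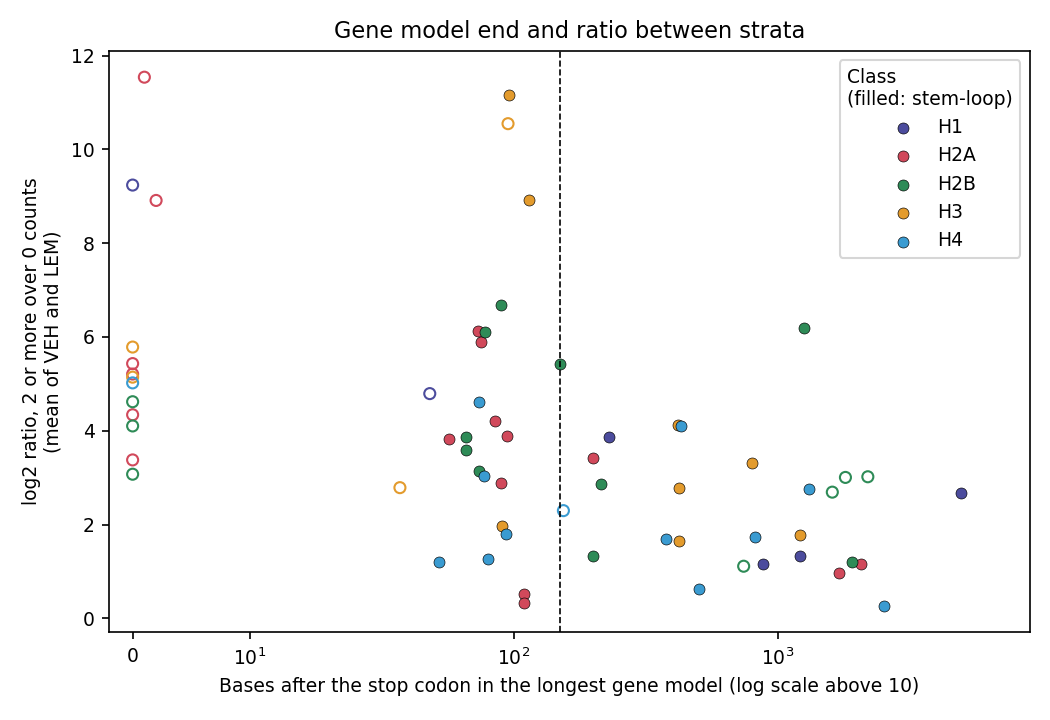
Log2 ratio between cells with 2 or more and with 0 counts of *Mki67* and *Top2a* (mean of VEH and LEM) against the number of annotated bases behind the stop codon (log scale above 10) for 65 members, coloured by class, filled where the transcript holds the stem-loop, with a dashed line at 150 bases. The 6 genes above a ratio of 8 lie left of the line, and the 28 members on and right of it have ratios of 0.26 to 6.19.

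Histone counts within cycling cells did not follow the S-phase list alone. The cells with 2 or more counts were split at the medians of their summed counts of the S-phase list (24) and the G2/M list (53.5). Cells at or over both medians held 12490.5 histone CPM in VEH (39 cells) and 9319 in LEM (55 cells), and cells high in G2/M counts only held 13592 (38 cells) and 10185 (52 cells). Cells high in S-phase counts only held 5498 (44 cells) and 4061 (51 cells), and cells low in both held 4311 (32 cells) and 4391 (57 cells). The 6 genes of the first band were also higher in cells high in G2/M counts, with 1263 and 966 CPM in cells high in both, 1109 and 998 CPM in cells high in G2/M counts only, 455 and 315 CPM in cells high in S-phase counts only and 227 and 182 CPM in cells low in both. These 6 genes were picked by their ratio across the *Mki67* and *Top2a* cut, and the part of that pick in this order was not tested. List counts grow with depth, and median depths ran from 6550 in LEM cells low in both to 11993 in VEH cells high in both. Cells high in 1 list only were close in depth in VEH, at 9426 for S-phase and 9356 for G2/M, but not in LEM, at 9421 and 11295.

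Among cells with 0 counts of *Mki67* and *Top2a*, the summed histone level was lower, not higher, where S-phase list counts were highest. With 0 to 2 S-phase list counts the histone level was 1751 CPM in VEH (14995 cells) and 1835 in LEM (19503 cells), and with 20 or more it was 1311 (36 cells) and 1146 (67 cells). The 6 genes of the first band, on few counts, were at 0.93 CPM in VEH and 0.92 CPM in LEM with 0 to 2 S-phase list counts, 0.33 and 1.13 CPM with 3 to 4, 0.14 and 0.87 CPM with 5 to 9, and 3.01 and 2.4 CPM with 10 to 19. The last values rest on 4 counts in 2 of 136 VEH cells and 8 counts in 6 of 318 LEM cells. With 20 or more they held 1 count in the 36 VEH cells and 0 in the 67 LEM cells, so no steady order was seen. Median depth rose over these 5 groups of cells, from 5601 to 9753 counts in VEH and from 5682 to 9891 in LEM, and its part in these levels was not tested. The 27 VEH and 59 LEM cells with 0 counts that held *Hist1h1b* had medians of 1 and 2 S-phase list counts and 0 and 0 G2/M list counts, against 1 and 1 and 0 and 0 in the cells without it. At least 5 G2/M counts were present in 2 of the 27 and 1 of the 59, against 15 of 18133 and 18 of 24015 cells without *Hist1h1b*.

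**Figure D4:**
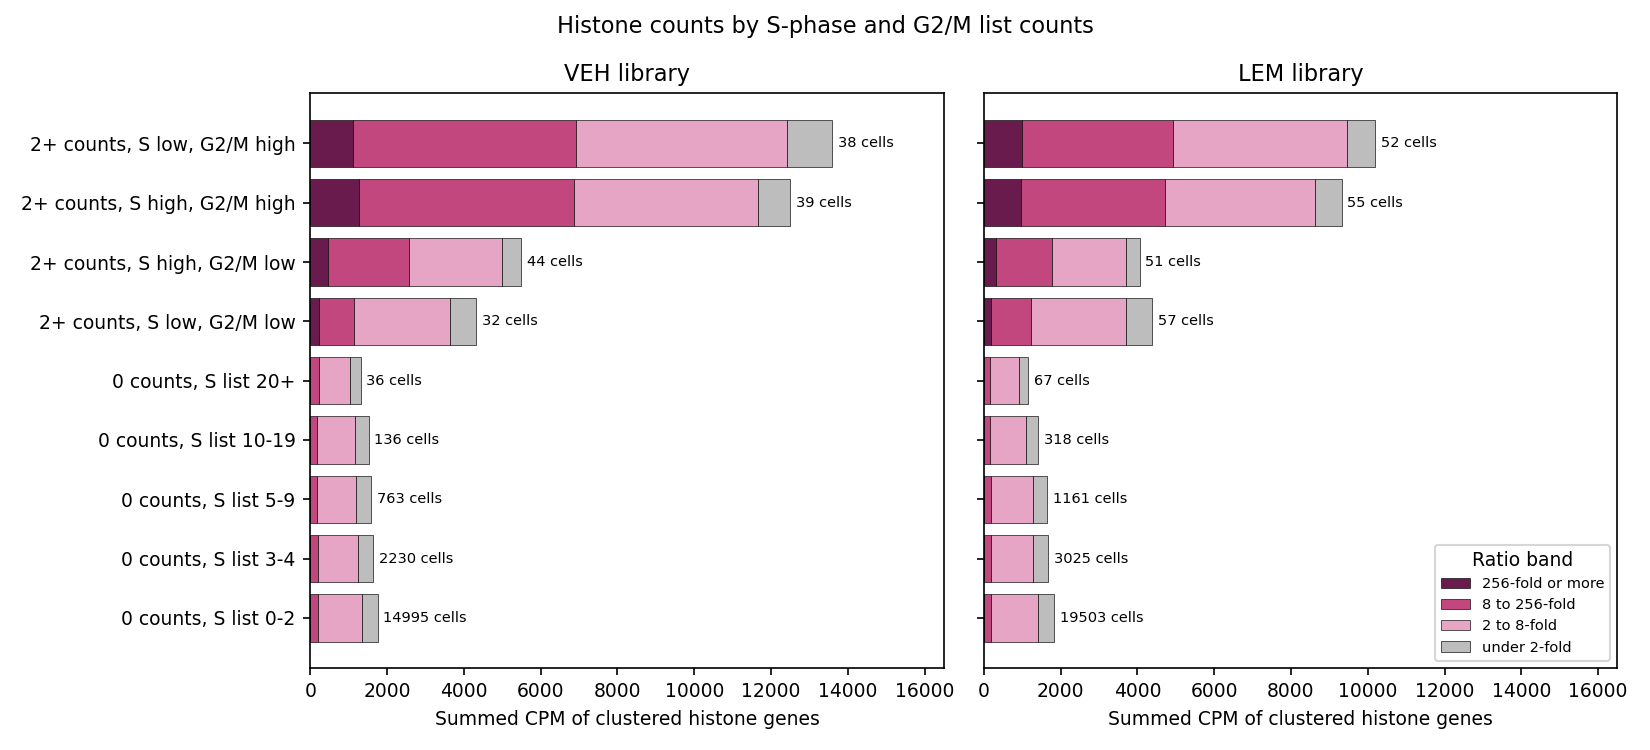
Summed CPM of clustered histone genes (bar length) in groups of cells by *Mki67* and *Top2a* counts (0 or 2 and more) and by S-phase and G2/M list counts, for VEH (left) and LEM (right), with bar colours for the 4 ratio bands and the number of cells at each bar. The 2 bars of cells high in G2/M counts are the longest in both panels, and the 5 bars of cells with 0 counts lie between 1146 and 1835 CPM.

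Genes outside the clusters that serve the same chromatin were read from lists. Of 11 unclustered histone variants, whose mRNAs are for the most part polyadenylated, 7 were at least 2-fold higher in cycling cells in both libraries. *H3f3b*, a gene of the replacement histone H3.3, was at 2774 and 3284 CPM in VEH with ratios of 0.24 and 0.29, *H3f3a* had 0.63 and 0.69, and *H2afz*, which codes for H2A.Z, 2.85 and 2.90. Of 13 genes of histone mRNA transcription and processing that the table holds, 7 were higher and 0 lower. The most counted were *Cpsf3*, a 3′ end nuclease, with -0.40 and -0.43, and *Slbp*, the stem-loop binding protein, with 1.88 and 1.94. Of 16 histone chaperones, 10 were higher and 0 lower, and the most counted, *Npm1*, had 0.32 and 0.06. None of the 8 microglial markers was 2-fold higher or lower in both libraries, and their summed level was 46483 and 33320.2 CPM in VEH and 47340 and 34948 CPM in LEM.

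The comparison of LEM with VEH asks whether treatment moved histone expression. Over all cells the histone genes summed to 1821 CPM in VEH and to 1866 CPM in LEM, which is a log2 ratio of 0.04 (0.03 to 0.04), against a median of 0.01 over all genes. The interval covers counting error only. Most cells (5686 and 9025 in VEH, 8409 and 11223 in LEM) could be assigned to female or male mice by their *Xist* and Y-chromosome transcripts. This parts each library into 2 pools of different mice, and the pools disagreed. The summed level was 1879 and 1614 CPM in female VEH and LEM cells and 1806 and 2087 CPM in male ones, ratios of -0.22 and 0.21. The small ratio over all cells is therefore within the spread between pools of mice.

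A member was called past the fold where its log2 ratio over all cells was at least 0.5 in either direction with the same sign in female and male cells. By this rule 3 of 65 members were higher in LEM, against 5.43% of all genes, and 7 were lower, against 4.81%. The 3 were *Hist1h4n*, *Hist1h4i* and *Hist3h2ba*, and the 7 were *Hist1h2af*, *Hist1h2ao*, *Hist1h2ap*, *Hist1h4m*, *Hist2h2aa2* and, on 42 and 43 counts, *Hist1h2bq* and *Hist1h1t*. *Hist1h2ap*, *Hist1h2bq* and *Hist1h1t* were named after their values were seen.

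Among H4 genes, *Hist1h4n* (chr13:21831767-21832196, minus strand) was at 11.5 and 7.6 CPM in female and male VEH cells and 18.3 and 22.3 CPM in female and male LEM cells, a ratio of 1.12 (95% interval 1.02 to 1.22). Both LEM pools lay above both VEH pools. *Hist1h4m* (chr13:21811746-21812147, plus strand) was at 12.9 and 10.0 CPM in female and male VEH cells and 3.23 and 9.36 CPM in female and male LEM cells, a ratio of -0.79 (95% interval -0.91 to -0.67). Here 1 pool, the female LEM cells, stood apart, and the male LEM cells were close to the male VEH cells. *Hist1h4i* (chr13:22040636-22041362, minus strand) was at 25.4 and 23.4 CPM in female and male VEH cells and 35.5 and 50.7 CPM in female and male LEM cells, a ratio of 0.87 (95% interval 0.81 to 0.93), again with both LEM pools above both VEH pools. The transcripts of *Hist1h4n* and *Hist1h4m* share 81.2% and 88.5% of their 90-base stretches with other transcripts and those of *Hist1h4i* 17.4%. How reads were split between such copies was not tested.

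Among H2A genes, *Hist1h2ao* (chr13:21810465-21810944, plus strand) was at 42.7 and 33.6 CPM in female and male VEH cells and 18.1 and 23.9 CPM in female and male LEM cells, a ratio of -0.80 (95% interval -0.86 to -0.73), with both LEM pools below both VEH pools. *Hist2h2aa2* was at 7.56 and 6.76 CPM in female and male VEH cells and 3.88 and 4.69 CPM in female and male LEM cells, and *Hist1h2af*, a gene of the first band, at 2.79 and 2.6 CPM in female and male VEH cells and 0.815 and 1.86 CPM in female and male LEM cells. Both LEM pools lay below both VEH pools for these genes too. The transcripts of *Hist1h2ao* and *Hist2h2aa2* share 92.8% and 100% of their stretches with others. *Hist3h2ba*, an H2B gene, was at 1.56 and 1.13 CPM in female and male VEH cells and 2.07 and 2.63 CPM in female and male LEM cells. Of the other extreme members with at least 50 counts, *Hist1h4j* had a ratio of 0.62 (95% interval 0.31 to 0.93), *Hist1h2bp* of 0.87 (95% interval 0.11 to 1.67) and *Hist1h3g* of -0.59 (95% interval -1.02 to -0.16), all 3 with opposite signs in female and male cells.

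The 6 members with the most counts had ratios smaller in size than those of the H4 genes above. *Hist1h1e* was at 398 and 418 CPM in female and male VEH cells and 393 and 451 CPM in female and male LEM cells, a ratio of 0.05 (95% interval 0.03 to 0.06), and *Hist1h1c* had 0.07 (95% interval 0.05 to 0.10). *Hist1h2bg* had 0.13 (95% interval 0.10 to 0.16), *Hist4h4* 0.11 (95% interval 0.07 to 0.14) and *Hist1h1d* 0.19 (95% interval 0.16 to 0.22). *Hist1h2bc* had -0.34 (95% interval -0.37 to -0.31), and was at 137 and 125 CPM in female and male VEH cells and 71.4 and 126 CPM in female and male LEM cells, with the female LEM cells apart from the other 3 pools.

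Direction differed between the pools for many members. Of the 61 members with at least 50 counts, 21 were lower in female and higher in male LEM cells with both intervals clear of 0, against 4.84% of 15913 genes, and 0 showed the reverse, against 2.34%. The median difference between the male and the female ratio was 0.94 over these 21 members. *Hist1h2bk*, an H2B gene, was at 3.37 and 1.33 CPM in female and male VEH cells and 2.03 and 3.13 CPM in female and male LEM cells, and *Hist1h2ah* at 0.986 and 0.856 CPM in female and male VEH cells and 0.471 and 1.66 CPM in female and male LEM cells. For *Hist1h2bk* the male VEH cells stood lowest, and for *Hist1h2ah* the female LEM cells. The share of cells with 2 or more counts of *Mki67* and *Top2a* moved in the same way, at 0.95% and 0.714% of female and 0.853% and 1.07% of male VEH and LEM cells, and its part in these ratios was not tested. Summed ratios in the cells with 0 counts are given next.

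**Figure D5:**
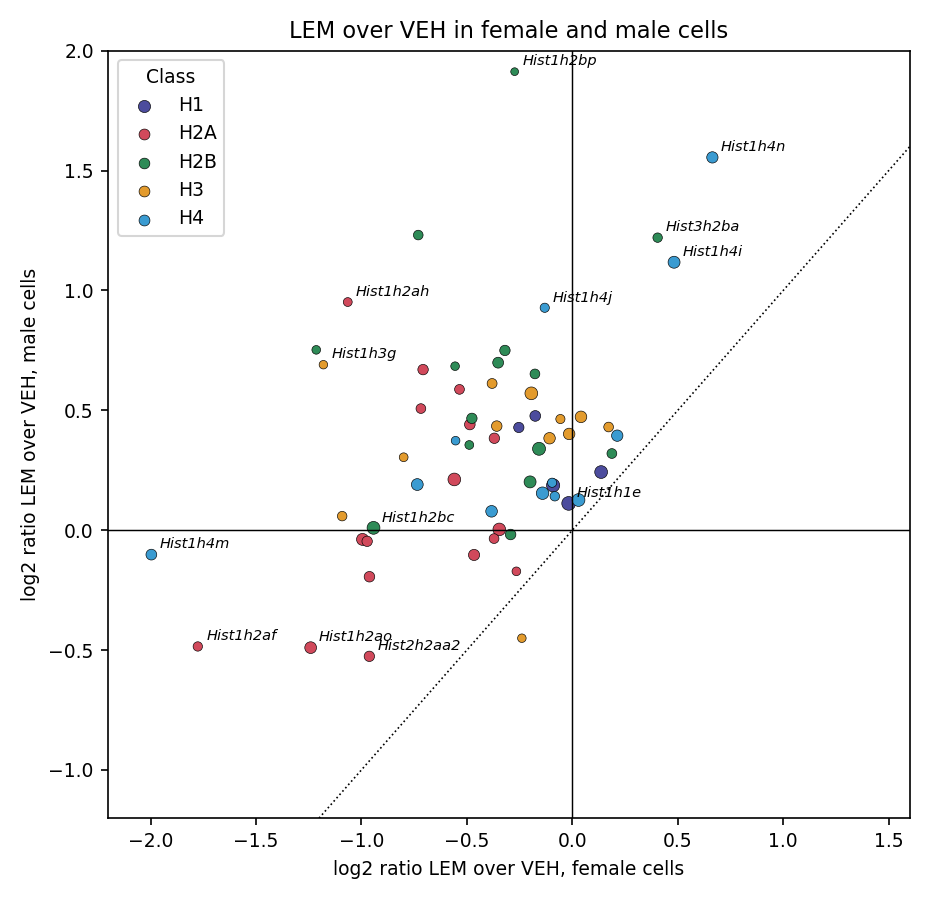
Log2 ratio of LEM over VEH in female cells (x) against male cells (y) for the 61 members with at least 50 counts, coloured by class, with larger points for more counts and a dotted line where both ratios are equal. All points but that of *Hist2h3c2* lie above the dotted line, and *Hist1h4n*, *Hist1h4i* and *Hist3h2ba* lie above 0 on both axes.

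In cells with 0 counts of *Mki67* and *Top2a* the summed ratio of LEM over VEH was 0.06 (0.05 to 0.06). The female pools gave -0.16 and the male pools 0.21. Of 61 members with at least 20 counts there, 8 were higher, against 5.53% of genes, and 6 lower, against 4.82%. Over all cells, 5 of 6 markers of the choroid plexus epithelium were higher in LEM, against 5.43% of all genes. In the cells with 0 counts their summed level was 443 CPM in VEH and 1329 CPM in LEM. Without the cells that carry markers of other types the summed histone ratio was 0.06, and the part of choroid plexus RNA in the remaining cells was not tested.

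In cells with 2 or more counts, the summed histone level was lower in LEM, at 7459.7 against 9363 CPM, a ratio of -0.33 (-0.36 to -0.30) that was negative in the female (-0.55) and the male pools (-0.24). Classes differed: the summed ratio was -0.57 for H2A, -0.31 for H1 and -0.30 for H4, but -0.11 for H3 and -0.07 (-0.15 to 0.02) for H2B. H2B genes had -0.63 in female and 0.24 (0.12 to 0.35) in male cells, and H3 genes -0.31 and -0.05 (-0.17 to 0.07). Of 59 members with at least 20 counts there, 3 were higher, against 6.14% of 10661 genes, and 14 lower, against 6.07%, of which 9 were H2A genes. *Hist1h2ao* was at 727 and 634 CPM in female and male VEH cells and 234 and 289.8 CPM in female and male LEM cells, a ratio of -1.28 (95% interval -1.43 to -1.13). *Hist1h2af* had -1.08 (95% interval -1.35 to -0.81), *Hist1h1a* -0.73 (95% interval -0.96 to -0.49) and *Hist2h2ac* -0.56 (95% interval -0.79 to -0.34), whereas *Hist1h1b* had 0.12 (95% interval -0.05 to 0.29). These cells are few, with 54 and 60 female and 77 and 120 male cells in VEH and LEM, and 32 of 153 VEH and 57 of 215 LEM cells were low in both the S-phase and the G2/M list. Within the groups of cells by both lists given above, LEM was lower than VEH in the 3 groups high in at least 1 list and about level with it in the cells low in both.

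The ratio between cycling and non-cycling cells was larger in VEH than in LEM for 55 of the 64 members with a ratio in both libraries, against 52.5% of 13872 genes. The intervals did not overlap for 20 members with VEH higher, against 1.36% of those genes, and for 0 with LEM higher, against 0.764%. Of the 58 members at least 2-fold higher in both libraries, 49 had the larger ratio in VEH, against 61.9% of the 1927 genes past that fold. In 18 of them the intervals did not overlap with VEH higher, against 3.22% of those genes, and the share of those genes with LEM higher was 0.519%. Intervals are narrower for genes with more counts. *Hist1h1a* had 5.44 (95% interval 5.23 to 5.64) in VEH and 4.14 (95% interval 3.95 to 4.34) in LEM, and *Hist1h4i* had 2.18 (95% interval 1.94 to 2.41) and 1.19 (95% interval 0.99 to 1.38). *Hist1h1b*, *Hist1h2bc* and *Hist1h2bm* had overlapping intervals. This comparison restates the ratios of LEM over VEH in both kinds of cells given above and is not a separate result. Members share clusters and sequence and are not independent of each other. With 1 library for each treatment, the difference between the libraries has no replicate check.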

How the data were processed

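Microglia of 2 libraries (VEH and LEM, 1 each, 5 pooled mice per library) were read by 5′ single-cell RNA sequencing. The deposited table holds unscaled counts of unique molecules per gene and cell, made by the authors with Cell Ranger 8.0.0 on mm10 (per the labels). The study's methods name a correction for free RNA and filters on cells, and whether the correction is in the deposited counts cannot be told. The table holds fewer cells than the study states, and its cell names are not barcodes, so barcodes shared between libraries could not be counted. No column was left unmatched to a library.

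Members were rows with the symbols given above. Members and gene lists were chosen with earlier results of these data known. Raw counts were summed over cells of a library and stratum and divided by the stratum's total (per 1000000 counts, CPM), over genes with at least 20 counts. Intervals (95%) were exact Poisson for levels, exact Clopper-Pearson for shares and exact conditional binomial for ratios, and they cover counting error only. A 0 was set to 3 counts for a bound. A member was higher or lower between strata at a log2 ratio of 1 in both libraries, and between treatments at 0.5 with 1 sign in female and male cells. The members named were the 25 with the most counts and, among those with at least 50 counts, the 5 highest and 5 lowest ratios between strata and between treatments. Every other member named was chosen after its values were seen. For shares of cells, counts were also thinned to 2000 per cell, and cells with fewer counts were left out of the thinned values. Doublets were scored with Scrublet in Scanpy 1.11.5 and kept. The automatic threshold called 0 VEH cells, so that of LEM (0.321) was used for both, marking 13.14% and 12.76% of cells, and 9.15% and 14.4% of the cells with 2 or more counts of *Mki67* and *Top2a*. The sex of the mouse a cell came from was read from its *Xist* and Y-chromosome counts. Gene models came from GENCODE vM21 (GRCm38), and transcripts were compared in stretches of 90 bases. Scripts (Python 3.11.15, SciPy 1.17.1) were tested on simulated data. Alternatives were other marker cuts, scalings, depths, count minimums and cell sets.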

Additional observations from a re-analysis of the deposited data

Results flagged for a closer look

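Over all cells, the summed ratio of LEM over VEH, and that of the members named here, had opposite signs in the female and male pools. In cells with 2 or more counts of *Mki67* and *Top2a* the summed ratio was negative in both pools, at -0.55 in female and -0.24 in male cells. The H2B genes alone had -0.63 and 0.24 there. Each pool holds other mice, and with 1 pool per sex and treatment the difference between them was not tested. For the summed histone genes, the male ratio exceeded the female ratio by 0.43 on the log2 scale, against a median of 0.03 over all genes. For 21 members both intervals also lay clear of 0, with the female ratio below and the male ratio above 0 each time. The difference between the male and the female ratio, on the log2 scale, was 2.02 for *Hist1h2ah*, 1.97 for *Hist1h2bm*, 1.96 for *Hist1h2bk*, 1.87 for *Hist1h3g*, 1.38 for *Hist1h2an*, 1.23 for *Hist3h2a*, 1.12 for *Hist1h2ak*, 1.07 for *Hist1h2bj* and 1.05 for *Hist1h2bn*. It was below 1 for the rest, with 0.99 for *Hist1h3i*, 0.94 for *Hist1h2bb*, 0.93 for *Hist1h2ai*, 0.93 for *Hist1h4c*, 0.79 for *Hist1h3f*, 0.77 for *Hist1h2ae*, 0.77 for *Hist1h3e*, 0.75 for *Hist1h2ad*, 0.50 for *Hist1h2bg*, 0.40 for *Hist1h2be*, 0.30 for *Hist1h4d* and 0.28 for *Hist1h1c*.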

How the results depend on the processing

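Counting error is the only error given as an interval here, so a value is called moved below when it left that interval. The spread between the pools of mice is not part of it. The ratio of the summed histone genes between cells with 2 or more and with 0 counts stayed positive under every alternative run, in VEH and LEM respectively. It was 2.14 and 1.79 with cells of 1 or more counts, 2.57 and 2.15 with 3 or more, 2.72 and 2.23 with 5 or more, 2.33 and 1.95 with *Mki67* alone, 2.35 and 1.96 with *Top2a* alone, 2.37 and 1.98 after thinning, 2.32 and 2.02 as a mean over cells, 2.52 and 2.11 without doublets, 2.53 and 2.15 in female cells, and 2.42 and 2.02 against cells with under 3 S-phase list counts. It was 2.52 in male VEH cells and 2.13 in LEM cells with 5000 to 15000 counts. The number of members called stayed within 1.5 times of 59. Single members gave 858 values under these alternatives, of which 832 stayed past 2-fold in both libraries, 26 fell under it and 0 reversed.

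The summed ratio of LEM over VEH over all cells reversed in female cells to -0.22 and was 0.21 in male cells, 0.022 with median ratios, 0.025 without the 20 most abundant genes, 0.024 without doublets, 0.0064 with the sexes weighted equally and 0.054 after thinning. The count of members higher was 6 as a mean over cells, 1 in female cells, 18 in male cells and 5 after thinning, and of members lower 21 in female and 1 in male cells. Here and below, counts in a single sex asked only for a log2 ratio of 0.5 on at least 20 counts in that sex. The same-sign rule does not apply to them and their share over all genes was not taken, so they are not comparable with the counts over both sexes. In cells with 0 counts the ratio reversed in female cells to -0.16 and was 0.21 in male cells, 0.043 with median ratios, 0.045 without the most abundant genes, 0.035 with equal weights and 0.067 after thinning. There, 4 members were higher in female and 19 in male cells, and 1 was lower in male cells and 3 at a minimum of 50 counts. In cells with 2 or more counts the ratio stayed negative, at -0.25 as a mean over cells, -0.55 in female cells, -0.24 in male cells and -0.39 with equal weights. There, 0 members were higher in female cells, 8 in male cells and 0 after thinning, and 30 were lower in female cells. *Hist2h2aa2* reversed there to 1.53 after thinning. For these reversals the cause was not tested.

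After thinning, the share of cells with any member was 86.8% in VEH and 87.5% in LEM cells with 0 counts and 94.3% in LEM cells with 2 or more. For the 6 genes of the first band it was 0.154% and 0.197% in cells with 0 counts and 56.2% and 52.8% in cells with 2 or more. No paired analysis was possible because each treatment has 1 library. Depth limits members with few counts in cells with 2 or more, whose intervals span several units of log2 for *Hist1h2bq* and *Hist1h2br*. Members whose stretches occur in other transcripts, over 50% of them in 27 members, can gain or lose reads to their copies.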

Other observations

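Cells with 0 counts of *Mki67* and *Top2a* that carried choroid plexus markers held 1499.5 CPM in VEH (34 cells) and 1360.2 CPM in LEM (116 cells). Those with markers of border-associated macrophages held 635 CPM in VEH (11 cells) and 1101 CPM in LEM (41 cells). Between treatments over all cells, 2 of 6 markers of border-associated macrophages were higher in LEM and 0 lower, while 1 of 2 tested markers of neutrophils and monocytes was higher. Of 5 tested astrocyte markers 1 was higher and 1 lower, and of 4 tested neuronal markers 1 was lower. None of the tested markers of T and NK cells, of the oligodendrocyte lineage or of endothelial cells and pericytes was past the fold. By the same rule 5.43% of all genes were higher and 4.81% lower, and these lists are too short for a share of their own.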
